A study of Danio rerio with 24 samples.

Results

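Digestive enzymes of the pancreas were measured in RNA from pools of dissected zebrafish livers, where they serve as a gauge of pancreatic tissue in the dissection. The genes were a set of 10 named by symbol: the trypsinogens *prss1*, *prss59.1* and *prss59.2*, the chymotrypsinogen *ctrb1*, the procarboxypeptidases *cpa1*, *cpa4*, *cpa5* and *cpb1*, and the elastases *ela2l* and *ela3l*. In the table of 40-liver pools, 9 of the 10 were present among 19793 genes, and all 9 were among the 11489 genes that passed the filter on low counts (at least 5 reads in at least 80% of the 18 libraries). The remaining one, *ela3l*, was not analysed in that table and is described from a separate experiment at the end.

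The 18 libraries came from larvae at 7 days post fertilization (dpf), and each was made from a pool of 40 livers taken out under a bright-field microscope. The study's methods and figure legend give this age, whereas its results text gives 5 dpf. The *mtm* group (6 libraries) consisted of larvae homozygous for a loss-of-function mutation in *mtm1*, the zebrafish model of X-linked myotubular myopathy. EtOH larvae (4 libraries) were WT fish exposed to 2% ethanol for 32 hours before collection, and overfed larvae (4 libraries) were WT fish given 6 times the usual food at each meal from day 5 onward. WT larvae (4 libraries) were of the AB strain, untreated and fed normally. Of the *mtm* libraries, 3 (called 1, 2 and 3) belong to the first submission and the other 3, named R1 to R3, carry a resubmission mark in their titles. The study's methods give 4 to 5 replicates per group, fewer than the 6 *mtm* libraries. Whether R1 to R3 were made from new pools is not stated. If they were made from the pools of the first 3, the *mtm* group holds fewer than 6 independent pools, and the p-values measure in part the spread between libraries of one pool. A change in the number of cells of a type cannot be told apart from a change in the RNA made per cell.

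In zebrafish, as in other vertebrates, acinar cells of the exocrine pancreas make digestive enzymes as inactive precursors, store them in zymogen granules and release them into the gut. Trypsins cut proteins after basic residues and activate the other zymogens, chymotrypsins and elastases cut after other residues, and carboxypeptidases remove single residues from the end of a chain. Hepatocytes are not a known major source of these enzymes, and the larval pancreas lies beside the liver. Sequences of the genes and their proteins are not shown. Levels are compared between libraries, because no transcript lengths were used. Where different genes are ranked, summed or set in a ratio, this is done on counts that are not corrected for transcript length.

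Library totals ranged from 8919274 to 20582311 counts. Transcripts of *mtm1* were at 0.159 to 2.38 CPM (counts scaled to a library of fixed size) in *mtm* libraries, below all 4 WT libraries (3.23 to 7.92 CPM), whereas the EtOH range (0.175 to 4.88 CPM) overlapped both. Hepatocyte markers were abundant in every pool, led by *apoa2* and *fabp10a*. Their summed level ran from 30815 to 55024 CPM in 5 of the *mtm* libraries, was 146867 CPM in *mtm* 1, and lay between 124933 and 214904 CPM in WT. By mean over the 18 libraries, *apoa2* made up most of this sum (76581 CPM), with *fabp10a* next (11182 CPM). The sum therefore mainly follows *apoa2* and is no measure of the hepatocyte markers one by one. The *mtm* 1 library therefore stood apart from the rest of its group in both the hepatocyte markers and, as shown next, the pancreatic enzymes, and the main *mtm* values below are also given without it.

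The 9 enzymes were found in every library, but their amount differed mainly from pool to pool rather than from group to group. Together they took 1.76%, 0.0611% and 0.0242% of all counts in *mtm* 1, 2 and 3, and 0.0725%, 0.570% and 0.478% in *mtm* R1, R2 and R3. In EtOH pools 1 to 4 the share was 0.233%, 0.824%, 2.58% and 0.271%. In overfed pools it was 0.504%, 0.131%, 0.0316% and 0.271%. In WT pools it was 0.223%, 1.24%, 0.0868% and 5.15%. The highest share, in WT 4, was 213 times the lowest, in *mtm* 3, and WT pools alone differed by 59.4-fold. The groups overlapped in every pairing. Counting error was small beside these differences: the 95% Wilson interval was 5.14% to 5.17% in WT 4 (785741 of 15243381 counts) and 0.0235% to 0.0250% in *mtm* 3 (3811 of 15735105 counts). These intervals cover counting error only, since the reads carried no molecular identifiers.

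The mean share was 0.494% ± 0.661 in *mtm* (SD, n = 6), 0.977% ± 1.102 in EtOH (SD, n = 4), 0.235% ± 0.205 in overfed (SD, n = 4) and 1.68% ± 2.38 in WT (SD, n = 4). In 3 of these groups the SD exceeded the mean. Leaving out *mtm* 1 gave a mean of 0.241% for *mtm*, leaving out EtOH 3 gave 0.442% for EtOH, leaving out overfed 1 gave 0.145% for overfed, and leaving out WT 4 gave 0.517% for WT. Each of these 4 libraries alone moved its group's mean by more than 1.5 times.

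**Figure D1:**
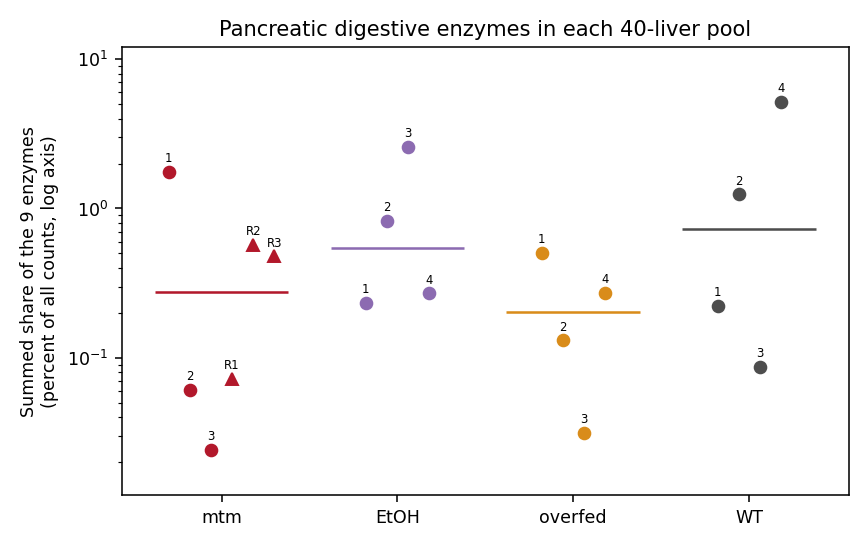
Summed share of the 9 digestive enzymes in each 40-liver library, as a percent of all counts on a log axis, by group (points, numbered by replicate; triangles, resubmitted *mtm* libraries; horizontal lines, group medians). Shares span 0.0242% in *mtm* 3 to 5.15% in WT 4, and the 4 groups overlap.

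Trypsinogens showed this pattern plainly. *prss1*, which encodes a trypsinogen, ranged in *mtm* libraries from 24.1 to 3669 CPM with a median of 317.5 CPM (n = 6). It stood at 448.0, 1366, 4905 and 593 CPM in EtOH pools 1 to 4, at 833, 229.8, 54.7 and 559 CPM in overfed pools, and at 388, 2163, 210.4 and 11379 CPM in WT pools. EtOH 3, *mtm* 1 and WT 4 were high, *mtm* 2, *mtm* 3, *mtm* R1 and overfed 3 were low, and no pair of groups was separate. The log2 fold change of *prss1* was −1.45 ± 1.49 (SE) in *mtm* against WT (−2.59 without *mtm* 1), 0.45 ± 1.73 in EtOH against WT and −2.82 ± 1.54 in overfed against WT. The adjusted p-values were 0.575, 0.922 and 0.9996 (edgeR quasi-likelihood, Benjamini-Hochberg over the whole table).

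The other trypsinogens, *prss59.1* and *prss59.2*, are neighbours in the RefSeq annotation and near-copies of each other, so the split of reads between them is uncertain. *prss59.2* had the highest counts of the set over all libraries together. Its level was 52.6 to 5990 CPM in *mtm* (median 684 CPM), 814 to 7749 CPM in EtOH (median 1694 CPM), 82.1 to 1072 CPM in overfed (median 404 CPM) and 249.2 to 16057 CPM in WT (median 1495 CPM). *prss59.1* was at 18.5 to 1859 CPM in *mtm* (median 129.8 CPM), at 243 to 3566 CPM in EtOH (median 485 CPM), at 49.7 to 676 CPM in overfed (median 263 CPM) and at 140.4 to 8396 CPM in WT (median 866 CPM). Both genes therefore covered overlapping ranges in all 4 groups.

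The chymotrypsinogen gene *ctrb1* was at 39.1 to 3965 CPM in *mtm* (median 515 CPM), 398 to 4613 CPM in EtOH (median 993 CPM), 52.7 to 656 CPM in overfed (median 331 CPM) and 184.7 to 10668 CPM in WT (median 1053 CPM). The elastase gene *ela2l* was at 17.2 to 2336 CPM in *mtm*, 423 to 3988 CPM in EtOH, 51.0 to 867 CPM in overfed and 144.3 to 9830 CPM in WT. For both genes WT 4 was the highest of the 18 libraries and *mtm* 3 the lowest, so the WT group held the top of a range that the other groups also filled.

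Among the procarboxypeptidases, *cpa5* ranged from 25.7 to 1471 CPM in *mtm*, 140.1 to 3541 CPM in EtOH, 37.8 to 643 CPM in overfed and 123.4 to 7901 CPM in WT. The B-type enzyme gene *cpb1*, whose product removes basic residues, ranged from 7.61 to 398 CPM in *mtm*, 65.0 to 829 CPM in EtOH, 12.7 to 133 CPM in overfed and 37.7 to 1578 CPM in WT. *cpa1* and *cpa4* had the lowest counts of the set, and both reached single counts in *mtm*: 4 counts of *cpa1* in *mtm* R1 and 1 count of *cpa4* in *mtm* 3. Outside *mtm*, *cpa1* had at least 35 counts and *cpa4* at least 107.

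*cpa4* had the lowest fold change of the set in *mtm* against WT, though it was not called. It stood at 85.5, 0.887, 0.0497, 1.35, 13.4 and 13.2 CPM in *mtm* 1, 2, 3, R1, R2 and R3. It was at 24.6, 69.1, 244.2 and 26.3 CPM in EtOH pools, at 64.4, 26.4, 13.8 and 31.6 CPM in overfed pools, and at 21.8, 124.9, 7.69 and 377 CPM in WT pools. All *mtm* libraries except *mtm* 1 thus lay below every overfed and EtOH library, but WT 3 lay within the *mtm* range. The log2 fold change in *mtm* against WT was −2.84 ± 1.58 (SE; 95% interval −6.19 to 0.52), with an edgeR adjusted p of 0.248. Without *mtm* 1 it was −4.16 with an edgeR adjusted p of 0.0480, so that 1 library decides this call.

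**Figure D2:**
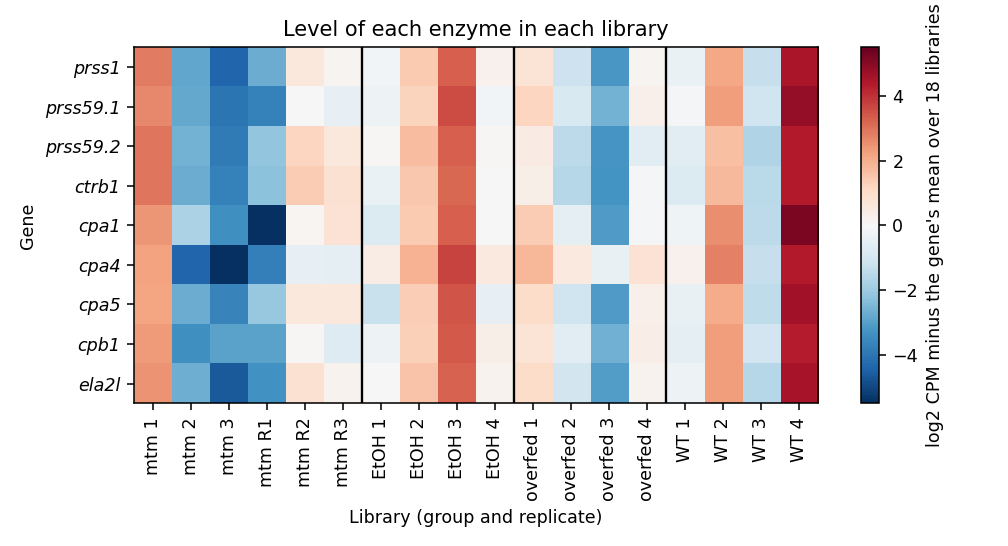
Level of each of the 9 enzymes (rows) in each of the 18 libraries (columns; vertical lines separate *mtm*, EtOH, overfed and WT), as log2 CPM minus the gene's mean over all libraries. Whole columns are red (WT 4, EtOH 3, *mtm* 1) or blue (*mtm* 2, *mtm* 3, *mtm* R1, overfed 3), because the enzymes are high or low together in a pool.

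No enzyme was called in any comparison by edgeR, in either direction, at an adjusted p under 0.05. In *mtm* against WT, 0 of 9 were called lower and 0 of 9 higher, where 8.59% of all tested genes were called lower and 10.1% higher. The log2 fold changes of the 9 ran from −2.84 (*cpa4*) to −0.62 (*ctrb1*) with a median of −1.603, against a median of 0.01 over all tested genes, and their SEs were 1.397 to 1.66. None had an unadjusted p under 0.05, where 3490 of all 11489 tested genes did. DESeq2 also called 0 of the 9, where it called 11.7% of all tested genes lower and 13.2% higher. The size of these estimates rested on single libraries: the median was −2.60 without *mtm* 1, −2.41 without WT 1, −2.42 without WT 3, −0.70 without WT 2 and −0.63 without WT 4. Leaving out EtOH 3, EtOH 4 or overfed 1, which share the fit, gave −0.96, −1.07 or −0.98. It was −2.48 with the first *mtm* libraries alone, −1.99 with the resubmitted ones alone and −1.83 with same-numbered *mtm* libraries summed. It was −2.47 without the replicate number in the model and −0.24 with only the 2 groups in the fit. All 9 estimates were below 0 in the joint fit, but 2 of them turned positive without WT 4 and 2 with only the 2 groups, and 1 without WT 2. The 9 do not count as separate observations, since they vary together across pools.

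In EtOH against WT, 0 of 9 were called in either direction, where 2.7% of tested genes were called lower and 4.66% higher. Their median log2 fold change was 0.32, from −0.45 (*cpa1*) to 0.77 (*prss59.2*), with SEs of 1.62 to 1.88. None had an unadjusted p under 0.05, where 2386 of all 11489 tested genes did. DESeq2 called 0 of the 9, where it called 5.67% of all tested genes lower and 7.89% higher. The sign was not fixed: the median was −1.51 without EtOH 3, −0.72 without WT 3 and −0.35 without WT 1, but 1.48 without EtOH 4 and 1.299 without WT 4. Without the replicate number in the model it was −0.95.

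In overfed against WT, 0 of 9 were called. Here edgeR called 0 of 11489 genes (0% lower and 0% higher), 493 had an unadjusted p under 0.05, and DESeq2 called 12 lower and 12 higher, none of them an enzyme of the set. The median log2 fold change of the enzymes was −2.78, with all 9 below 0, from −2.86 (*cpa1*) to −1.91 (*cpa4*). Their SEs were 1.41 to 1.73 and the smallest unadjusted p was 0.0840. Without WT 4 the median was −1.14.

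The direct comparisons between treated and mutant groups gave the same count. In *mtm* against EtOH the median log2 fold change was −1.89 and 0 of 9 were called, where 4.2% of genes were called lower and 2.87% higher. In *mtm* against overfed it was 0.95 and 0 of 9 were called, where 11.8% were called lower and 13.8% higher. In EtOH against overfed it was 2.98 and 0 of 9 were called, where 5.09% were called lower and 8.26% higher. In the first 2 of these, 0 enzymes had an unadjusted p under 0.05, where 2641 and 4194 of all 11489 genes did. DESeq2 called 0 enzymes in both, where it called 7.45% of genes lower and 7.36% higher in the first, and 15.3% and 16.8% in the second. In EtOH against overfed, *prss59.2* alone of the 9 had an unadjusted p under 0.05, and so had 3051 of all 11489 genes. Its log2 fold change was 3.60 ± 1.604 (SE), with an unadjusted edgeR p of 0.0388 and an edgeR adjusted p of 0.160. DESeq2 called this 1 gene (log2 fold change 3.57, adjusted p = 0.0388), where it called 11.1% of all tested genes higher. These comparisons share libraries with one another and with those against WT.

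**Figure D3:**
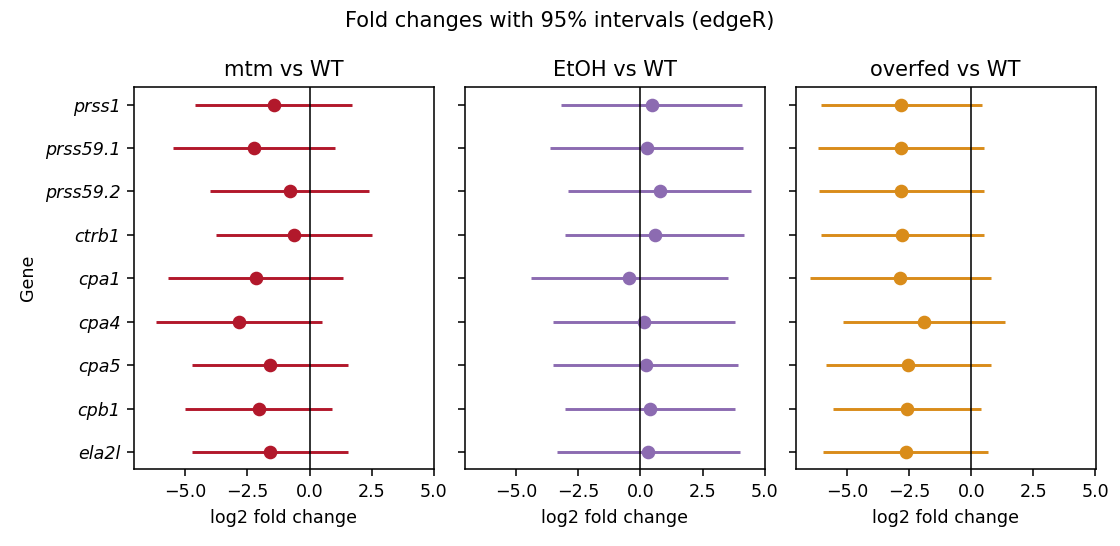
Log2 fold changes of the 9 enzymes against WT (points) with 95% intervals (lines, from SEs back-calculated from the edgeR F statistic), for *mtm*, EtOH and overfed. Every interval crosses 0, and medians are −1.603, 0.32 and −2.78.

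The width of those intervals follows from the spread between pools of one group. The SD of log2 CPM within groups was 2.04 (*cpb1*) to 2.50 (*cpa1*), which placed the 9 enzymes between the 99.4th and the 99.9th percentile of all tested genes. In edgeR their biological coefficient of variation was 1.07 to 1.2. The enzymes also moved as a block. Over the 36 pairs that the 9 genes form, Pearson's r of log2 CPM across the 18 libraries had a median of 0.960 (0.847 to 0.996), and 0.974 (0.876 to 0.996) after the mean of each group was removed. Spearman's rho had a median of 0.959. Without *mtm* 3 and WT 4, the libraries farthest from the median, r was 0.949 over 16 libraries. In WT 4 all 9 enzymes were at their highest level of the 18 libraries, in EtOH 3 all 9 ranked second, and in *mtm* 2, *mtm* 3 and *mtm* R1 all 9 were among the 4 lowest. These correlations are descriptions, and their points share library depth and scaling. The r of the mean log2 CPM of the enzymes was −0.20 with the log2 total count and −0.60 with the log2 TMM factor.

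The genes outside the set that followed it most closely included 3 that the wider exocrine list described next holds under the same symbol, *ela2*, *ctrl* and *sycn.2*. With group means removed, the closest was *ela2*, an elastase gene next to *ela2l* in the RefSeq annotation (r = 0.995 with the mean of the enzymes over 18 libraries). *LOC562139* (0.993), *zgc:112160* (0.991), *c6ast4* (0.991), the chymotrypsin-like gene *ctrl* (0.988), *si:ch211-240l19.5* (0.983) and *sycn.2* (0.981), a relative of the zymogen granule protein syncollin, came next. *apoda.2* (0.980), *si:dkey-57c15.4* (0.977) and *zgc:92137* (0.971) completed the 10. RefSeq lists *zgc:112160* as *ctrb.3*, *si:dkey-57c15.4* as *cela1.2* and *zgc:92137* as the amylase gene *amy2al2*. With group means kept, *c6ast3* (0.976), *pdia2* (0.969) and the bile salt-stimulated lipase gene *cel.2* (0.962) took the places of *si:ch211-240l19.5*, *apoda.2* and *si:dkey-57c15.4*. In all, 18 genes outside the set had an r above 0.9 with group means removed.

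A wider list of 42 exocrine pancreas genes held 18 that were present under the listed symbol and 10 that passed the filter. Presence was judged by symbol alone, here and in the lists below. The listed *cela1.2* and *amy2al2* were therefore counted as absent, though RefSeq gives these symbols to the tested *si:dkey-57c15.4* and *zgc:92137*. None of the 10 that passed was called by edgeR against WT in *mtm*, EtOH or overfed. Of all tested genes, edgeR called 8.59% lower and 10.1% higher in *mtm*, 2.7% and 4.66% in EtOH, and 0% in overfed. An unadjusted p under 0.05 was found for 1 of the 10 (*spink4*, a trypsin inhibitor, in overfed against WT), and there for 493 of all 11489 genes. Their mean log2 CPM followed the enzymes with an r of 0.989 over the 18 libraries. *ela2* ranged from 5.47 to 6191 CPM, *ctrl* from 22.6 to 3647 CPM, *cel.1*, a second bile salt-stimulated lipase gene, from 9.94 to 1372 CPM, and the phospholipase gene *pla2g1b* from 59.7 to 544 CPM. WT 4 was the highest library for all 4. Within groups *pla2g1b* had an r of 0.928 and *spink4* of 0.840 with the enzymes, whereas *cuzd1.2* had −0.15. The acinar transcription factor gene *ptf1a* did not pass the filter, with reads in 7 libraries and at most 23 counts, in WT 4.

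Markers of other tissues followed the enzymes less closely. Of 20 endocrine pancreas genes, 17 were present and 2 passed the filter. Both rose in *mtm* against WT by edgeR, where 10.1% of all tested genes did: *gcga*, which encodes glucagon, by a log2 fold change of 3.02 ± 0.77 (SE, adjusted p = 0.0106), and *ndufa4l2a*, a gene of a mitochondrial complex subunit family, by 3.53 ± 0.53 (adjusted p = 0.000194). The groups were not separate for *gcga*, whose highest level of the 18 libraries was in WT 4 (1084 counts, 92.3 CPM). In EtOH against WT *ndufa4l2a* rose by 3.17 ± 0.52 (edgeR adjusted p = 0.00124), where 4.66% of all tested genes were called higher. The summed level of this list was 180.6 to 503 CPM in *mtm*, 135.3 to 328 CPM in EtOH, 13.4 to 289.3 CPM in overfed and 21.1 to 279.4 CPM in WT. *ndufa4l2a* led this sum, with a mean of 125 CPM over the 18 libraries against 23.5 CPM for *gcga*. In *mtm* 3, where the sum was 503 CPM, *ndufa4l2a* alone was at 482 CPM. The mean log2 CPM of its 2 tested genes had an r of 0.04 with the enzymes, and of 0.34 with group means removed. Gene by gene on a log2 scale, the r over the 17 present ran from −0.26 (*ndufa4l2a*) to 0.67 (*ins*). It was 0.62 for *sst1.1* and 0.32 for *gcga*, so the r of 0.04 does not describe the whole list. The insulin gene *ins* and the somatostatin gene *sst1.1* did not pass the filter, and both were highest in overfed 4, with 1006 and 1170 counts.

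The intestine list (20 of 24 present) had an r of 0.535 with the enzymes (0.371 with group means removed), and its summed level was 849 to 1745 CPM in *mtm*, 2057 to 2398 CPM in EtOH, 7849 to 9331 CPM in overfed and 4952 to 6931 CPM in WT. These 4 ranges did not overlap, unlike those of the enzymes. The sum was mostly *apoa4b.1* (mean 3099 CPM over the 18 libraries), with *tm4sf4* next (343 CPM), so it does not describe the list gene by gene. Of the 14 intestine genes tested in *mtm* against WT, 4 were called lower and 2 higher, against 8.59% and 10.1% of all tested genes. *apoa4b.1* was among the lower ones (log2 fold change −3.82, edgeR adjusted p = 3.11e-05). *tm4sf4* was among the higher ones (1.62, edgeR adjusted p = 0.00411). The hepatocyte list (16 of 20 present) had an r of 0.632 (0.527 with group means removed). In *mtm* against WT, 4 of its 16 genes were called lower and 0 higher, where 8.59% and 10.1% of all tested genes were. An unadjusted p under 0.05 was found for 7 of the 16, and for 3490 of all 11489 tested genes. *apoa2* was called lower (log2 fold change −2.64, edgeR adjusted p = 0.000944), whereas *fabp10a* was not called (−0.04, edgeR adjusted p = 0.959). Skeletal muscle (13 of 19 present, r = 0.215, and 0.0637 with group means removed) was highest in EtOH 2, at 6110 CPM against 22.1 to 1352 CPM in the other 17 libraries. Heart muscle (7 of 8 present, r = 0.406, and 0.188 with group means removed) was at 6.45 to 36.8 CPM in *mtm* and 111.3 to 268 CPM in WT. Erythrocytes (11 of 12 present, r = 0.250, and 0.284 with group means removed) were at 81.8 to 506 CPM in *mtm* and 125.2 to 1477 CPM in WT. In *mtm* against WT edgeR called 2 of the 4 heart muscle genes tested lower, where 8.59% of all tested genes were. Of the 13 skeletal muscle genes, 1 was called higher in EtOH against WT, 5 higher in EtOH against overfed and 6 lower in *mtm* against EtOH. Of all tested genes, 4.66%, 8.26% and 4.2% were called in those directions. In EtOH against WT, 10 of the 13 had an unadjusted p under 0.05, and so had 2386 of all 11489 tested genes. The part of any of these tissues in the enzyme levels was not tested.

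**Figure D4:**
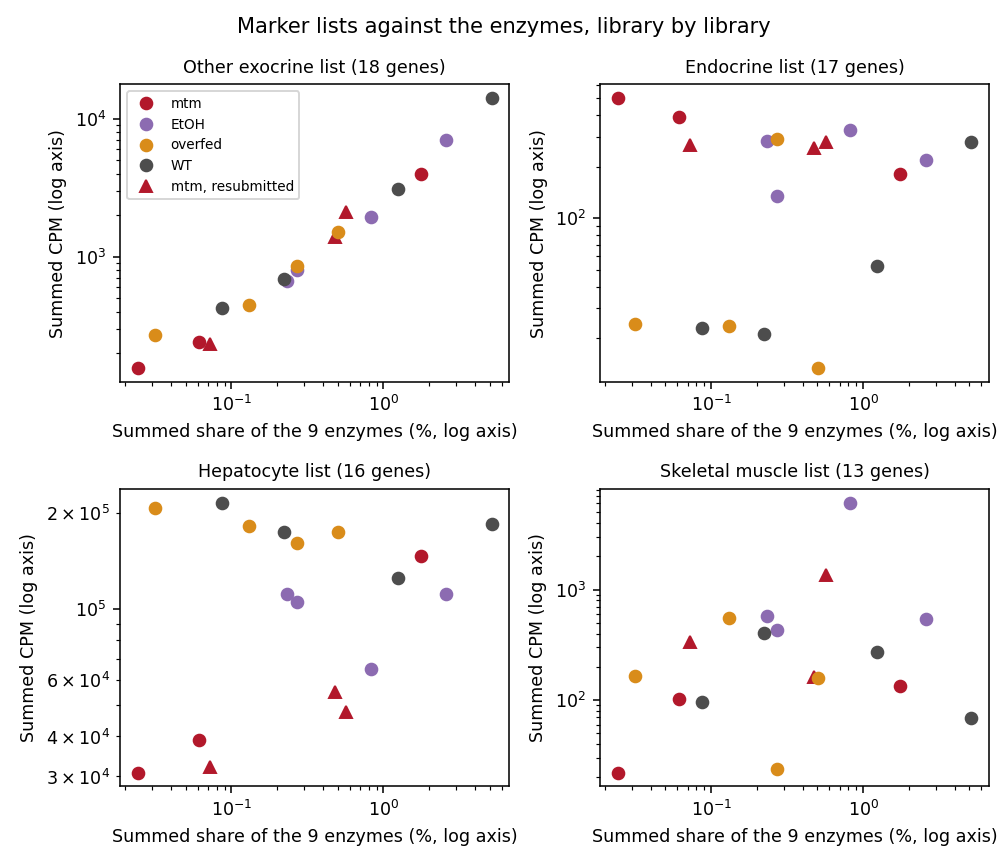
Summed CPM of 4 marker lists against the summed share of the 9 enzymes in each library (both on log axes; colours, groups; triangles, resubmitted *mtm* libraries). The other exocrine sum rises with the enzymes over the whole range. The endocrine sum (led by *ndufa4l2a*), the hepatocyte sum (led by *apoa2*) and the skeletal muscle sum scatter more. Single genes can differ from their sum (for *ins*, r = 0.67 with the enzymes).

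Although the total amount of enzyme RNA varied over a wide range in every group, 2 ratios between its members varied less within a group. These ratios were chosen after the values had been seen, and are given without a test. *prss59.2* had 3.22, 3.10 and 2.84 times the counts of *prss59.1* in *mtm* 1, 2 and 3, and 7.74, 5.85 and 5.48 times in *mtm* R1, R2 and R3. The ratio was 3.35, 3.66, 2.17 and 3.05 in EtOH pools, 1.59, 1.73, 1.65 and 1.45 in overfed pools, and 1.85, 1.70, 1.78 and 1.91 in WT pools. All 6 *mtm* and all 4 EtOH libraries lay above all 4 WT libraries, overfed overlapped WT, and the resubmitted *mtm* libraries lay above the first ones.

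As geometric means, the *prss59.2* to *prss59.1* ratio was 4.38 in *mtm* (SD 0.60 on the log2 scale, n = 6), 3.00 in EtOH (SD 0.33, n = 4), 1.601 in overfed (SD 0.11, n = 4) and 1.81 in WT (SD 0.07, n = 4). The log2 difference from WT was 1.27 in *mtm*, 0.75 with the first *mtm* libraries alone and 1.80 with the resubmitted ones alone. Against EtOH, the first *mtm* libraries differed by 0.02 and the resubmitted ones by 1.06. Salmon divides reads between such near-copies by estimation, and the *mtm* submission moved with the ratio; the part of either in it was not tested.

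A second proportion was taken between the chymotrypsinogen gene *ctrb1* and the trypsinogen gene *prss1*. Each has relatives in the data, such as *zgc:112160* (listed as *ctrb.3*) and the *prss59* genes. The split of reads with these relatives was not tested. The ratio of their counts was 1.08, 1.15 and 1.62 in *mtm* 1, 2 and 3 and 1.47, 1.80 and 1.64 in *mtm* R1, R2 and R3. It was 0.888, 1.06, 0.941 and 0.902 in EtOH pools, 0.787, 0.758, 0.964 and 0.874 in overfed pools, and 0.787, 0.833, 0.878 and 0.938 in WT pools. Every *mtm* library lay above every library of the other 3 groups, the nearest being *mtm* 1 and EtOH 2. Within *mtm*, libraries 1 and 2 lay below all resubmitted ones, and *mtm* 3 lay among them. The part of the submission in this ratio was not tested. The log2 difference between *mtm* and WT was 0.74 (SD within groups 0.25), and 0.68 to 0.83 when single libraries were left out.

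The share of single enzymes in the sum is given as a description only, since shares of one sum constrain each other. *ctrb1* made up 21.2% ± 2.39 of the enzyme counts in *mtm* (SD, n = 6) and 15.4% ± 1.21 in WT (SD, n = 4), and *prss59.2* made up 30.5% ± 2.35 in *mtm* and 22.8% ± 1.57 in WT. *prss59.1* made up 7.31% ± 2.42 in *mtm* and 12.6% ± 0.327 in WT, and *cpa4* 0.248% ± 0.136 in *mtm* and 0.825% ± 0.233 in WT. In EtOH, *prss59.2* (28.7% ± 2.69) made up more and *prss59.1* (9.63% ± 1.67) less than in WT. In overfed, *cpa4* made up 2.05% ± 1.27, with 1.06% as the lowest overfed value and 1.05% as the highest WT value.

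**Figure D5:**
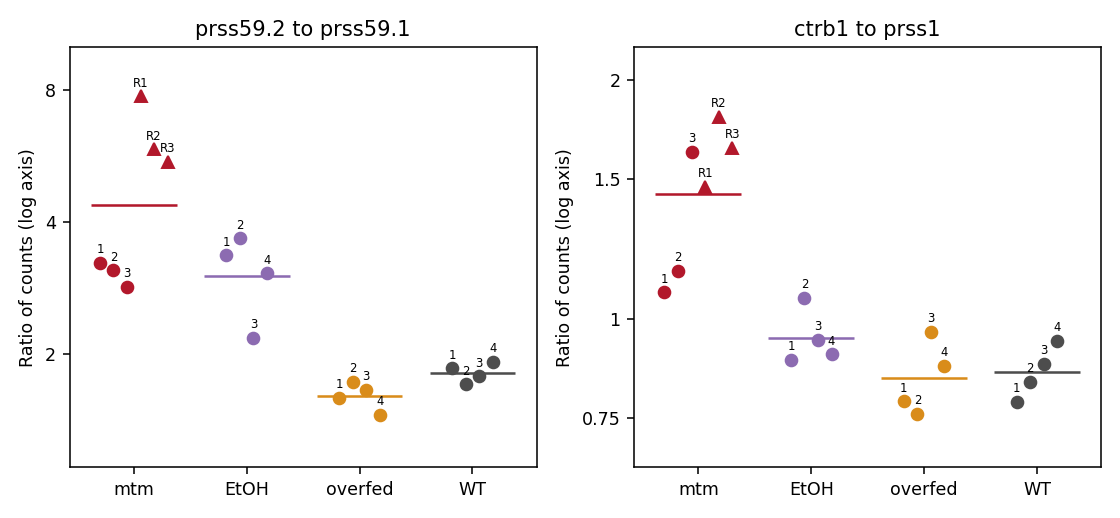
Ratio of counts of *prss59.2* to *prss59.1* (left) and of *ctrb1* to *prss1* (right) in each library on log axes, by group (points, numbered by replicate; triangles, resubmitted *mtm* libraries; horizontal lines, geometric means). On the left *mtm* and EtOH lie above WT, with geometric means of 4.38, 3.00 and 1.81; on the right only *mtm* does.

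A separate experiment measured pools of 20 livers from *abcb11b* mutants and WT siblings at 6 dpf, and its table, by Ensembl identifier, held 5 of the enzymes under their own symbols, *ela3l* (ENSDARG00000007276) among them. All its columns carry DMSO in their names, and the study's methods do not describe such an exposure for these larvae. Replicates 1 and 2 of the WT siblings held the same value for each of the 19707 identifiers and entered once, leaving 3 mutant-labelled and 2 sibling-labelled libraries. The gene listed as *ABCB11* (ENSDARG00000070078) was counted 108, 69 and 165 times under the mutant label and 0 and 7 times under the WT sibling label, so it went against the labels, and no direction is drawn from them. *ela3l* had 16.01, 127 and 63.8 CPM, here scaled by the library total, in the libraries labelled mutant, and 5.21 and 68.2 in those labelled WT sibling.

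The other 4 enzymes spread as widely. *prss1* was at 76.0, 454.5 and 274.1 CPM in the libraries labelled mutant and at 19.6 and 188.8 in those labelled WT sibling. The 5 enzymes together took 0.0239%, 0.151% and 0.0877% of counts in the libraries labelled mutant, against 0.00574% and 0.0673% in those labelled WT sibling, so the 2 sets overlapped. The ratio of *prss59.2* to *prss59.1* was 5.53, 4.60 and 6.04 in the libraries labelled mutant, against 3.65 and 2.41 in those labelled WT sibling. With 2 distinct libraries on one side and labels in doubt, no test was made.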

How the data were processed

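RNA from pools of 40 dissected livers was converted to cDNA with the SMART-Seq v4 kit, made into libraries with the Nextera XT kit and sequenced in pairs on a NovaSeq instrument. Per the labels and methods, the authors merged runs, trimmed adapters with Trim Galore 0.6.6 and estimated expression with Salmon on GRCz11 transcripts. The 2 deposited tables (40-liver and *abcb11b* experiments) hold these estimated counts, rounded to whole values per gene and not scaled. Transcript-level files were not used here.

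Counts were scaled by TMM and tested with edgeR 4.0.16 (quasi-likelihood, R 4.3.3) over all 18 libraries of the 40-liver experiment in a joint model that had the replicate number as a factor, as the study's did; R1, R2 and R3 took the numbers of *mtm* 1, 2 and 3. Genes with at least 5 reads in at least 80% of libraries were kept, p-values were adjusted by Benjamini-Hochberg over the 11489 genes, and a call required an adjusted p under 0.05, with no fold limit. CPM are TMM-scaled, except in the *abcb11b* experiment, where they are per library total. Log2 CPM used a prior count of 2. The fit was tested on simulated data. DESeq2 1.42.0, other scalings, filters and sample sets were alternatives. Sums, ratios and correlations are descriptions without a test.

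The enzymes and the marker lists were chosen with earlier results of these data known. All enzymes were named, with the 10 genes most correlated with their mean (with and without group means), exocrine genes at a mean of at least 10 CPM, and up to 4 genes per other list by highest mean CPM; *cuzd1.2* and *ptf1a* were named after their values were seen.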

Additional observations from a re-analysis of the deposited data

Results flagged for a closer look

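Samples far from the rest of their group were sought among the enzymes' CPM, their summed share and the 2 ratios, in 48 groups of values, and 17 were found where chance gives about 1 in 20. The enzymes vary together, so most of these repeat the same 3 pools, and the 17 cannot be weighed against that rate. In *mtm* 1 the summed share was 1.76%, and the CPM were 3669 for *prss1*, 1859 for *prss59.1*, 5990 for *prss59.2*, 3965 for *ctrb1*, 110 for *cpa1*, 85.5 for *cpa4*, 1471 for *cpa5*, 398 for *cpb1* and 2336 for *ela2l*, each far above the other 5 *mtm* libraries. In WT 4 the CPM of *prss59.1* (8396), *prss59.2* (16057), *ctrb1* (10668), *cpa1* (722) and *cpa5* (7901) stood far above the other 3 WT libraries. In EtOH 3 this held for *prss59.1* (3566 CPM) and *cpb1* (829 CPM). Neither of the 2 ratios had such a library. The cause was not tested.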

How the results depend on the processing

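The count of enzymes called was 0 in both directions in all 6 comparisons under every alternative run, with 2 exceptions: DESeq2 called 1 enzyme higher in EtOH against overfed, and leaving out single libraries gave 0 to 1 lower in *mtm* against WT (1 without *mtm* 1, *cpa4*, log2 fold change −4.16). The deviations of same-numbered libraries of different groups correlated with a median r of −0.0026 over 30 pairs (−0.23 to 0.34). It was 0.0022 over the 90 pairs of other numbers. For overfed with WT, the same numbers 1 to 4 gave 0.22, −0.12, 0.26 and 0.34, and other numbers gave −0.36 to 0.27. A pooled median cannot decide whether same-numbered libraries share a batch, and this was not tested. Without the replicate block the counts stayed at 0, but in EtOH against WT *prss1* turned to −0.95 and *prss59.2* to −0.69. With only the 2 groups in the fit, *prss1* turned to −0.16 in that comparison and *ctrb1* to 0.66 in *mtm* against WT. Leaving out single libraries gave −1.51 to 1.56 for *prss1*, −1.02 to 1.94 for *prss59.2* and −2.05 to 0.89 for *cpa1* in EtOH against WT, and −1.59 to 0.35 for *ctrb1* in *mtm* against WT. None of these estimates was called, and the cause was not tested. The spread within groups was 2.08 to 2.36 and the median pairwise r 0.948 to 0.973 (0.970 to 0.981 with group means removed) when single libraries were left out. The mean summed shares ran from 0.241% to 0.587% in *mtm*, 0.442% to 1.22% in EtOH, 0.145% to 0.302% in overfed and 0.517% to 2.21% in WT. Depth limits only *cpa1* and *cpa4* in *mtm*, with as few as 4 and 1 counts. With SEs of 1.397 to 1.88 against WT, log2 changes of several units cannot be told from none.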

Other observations

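The level of the enzymes can be carried in the model of all genes. An alternative fit, chosen after seeing the data, added the mean log2 CPM of the enzymes as a covariate. Of 11470 genes outside the exocrine lists by symbol, 873 were called lower and 944 higher in *mtm* against WT. Without the covariate the counts were 987 and 1160. Of these, 832 lower and 890 higher genes were shared by both fits. In EtOH against WT the counts were 343 lower and 541 higher with the covariate and 310 lower and 535 higher without it, of which 303 and 513 were shared. In overfed against WT edgeR called 0 genes with the covariate and 0 without it. The covariate also followed the hepatocyte list (r = 0.632) and the log2 TMM factor (r = −0.60), and no other covariate was set beside it. Close followers of the enzymes under other names, such as *zgc:112160* and *zgc:92137*, stayed among the 11470. The cause of the differences between the fits was not tested.

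The first and the resubmitted *mtm* libraries of one number did not carry like amounts of the enzymes. Number 1 had 1.76% in the first and 0.0725% in the resubmitted library, number 2 had 0.0611% and 0.570%, and number 3 had 0.0242% and 0.478%. The order of the first and the resubmitted library was therefore not the same in the 3 numbers.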
